A study of Bos taurus with 17 samples.

Results

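The genes described here are 10 core pluripotency regulators of the early embryo: POU5F1, NANOG, SALL4, LIN28A, LIN28B, TFCP2L1, ESRRB, PRDM14, TDGF1 and NODAL. They were chosen by symbol, and each matched a single gene among the 17167 in the deposited table. Messenger RNA was sequenced from 17 pools of 10 bovine morulae made in vitro, 8 of them cultured with recombinant WNT5A and 9 untreated controls. The morula is the compacting ball of cells that precedes the blastocyst. WNT5A is a secreted ligand that signals mostly without beta-catenin. The breed, embryo age, and dose and timing of the ligand are not stated in the labels. Nor do these say if the pools were independent in vitro fertilisations, so p-values measure the spread between pools, which may be partly technical. Each value is a level over 10 whole embryos, in which fewer cells expressing a gene and less RNA per cell cannot be told apart.

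In mammals, POU5F1 (OCT4), a POU-domain transcription factor, and NANOG, a homeobox factor, hold cells in an uncommitted state, and SALL4, a zinc finger protein, works with them. ESRRB, an orphan nuclear receptor, TFCP2L1, a CP2-family factor, and PRDM14, a PR-domain protein, uphold the naive state in mouse cells. LIN28A and LIN28B are RNA-binding proteins that block maturation of the let-7 microRNAs. NODAL is a TGF-beta family ligand, and TDGF1 (Cripto) is the membrane co-receptor that lets it signal. In cattle the POU5F1 protein is known to persist in the trophectoderm of the early blastocyst, unlike in mouse.

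Values are RPKM, that is reads per kilobase of annotated exon per M (mega) reads, with a library scaling that the authors applied. Multiples of the smallest step in each library were taken as reads, which gave 34.0 to 200.1 M per library, so a value of 3 reads stood at 0.0250 to 0.136 RPKM for LIN28A, the shortest of these genes. WNT5A libraries 4, 12 and 14 held 34.0 to 52.4 M reads, against 140.2 to 200.1 M in the other 5. Control libraries 2, 3 and 6 had 10055 to 11268 genes with reads, against 13587 to 15430 in the other 6, at like depth. Results that rest on either set of 3 are given with and without it. The trophectoderm factor CDX2 averaged 30.2 ± 13.2 RPKM in WNT5A pools and 29.99 ± 12.5 in controls (SD, n = 8 and 9), and the endoderm factor GATA6 288 ± 93.8 and 293 ± 119 RPKM. GATA3 (41.3 and 29.3 RPKM) and SOX17 (5.78 and 7.66 RPKM) were also present in WNT5A and control pools. By mean level in both groups, GATA6 made up most of the sum over 8 primitive endoderm genes used below. CDX2 and GATA3 were a small part of the sum over 10 trophectoderm genes. Markers of cumulus and granulosa cells summed to 15.7 to 32.2 RPKM over 11 genes in WNT5A pools and 8.25 to 43.4 in controls. The granulosa receptor gene FSHR averaged 0.154 and 0.157 RPKM, and the oocyte factor gene GDF9 0.373 and 0.211 RPKM, in WNT5A and control pools. Sums over 10 oocyte genes were 19.2 to 53.7 RPKM in WNT5A pools and 12.3 to 75.6 in controls, and over 5 blood and immune genes 7.97 to 14.3 and 7.71 to 33.7 RPKM.

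Levels of the 10 genes spanned from among the most abundant messages to none. POU5F1 ranked 25th by mean level in WNT5A pools and 17th in control pools. ESRRB, PRDM14 and SALL4 ranked between 954 and 1857 in either group, and LIN28A ranked 3059 and 3438. TFCP2L1, NANOG and LIN28B ranked between 6654 and 8488, and TDGF1 and NODAL lay near the bottom. POU5F1 stood above ESRRB in 17 of 17 libraries, by 13.2 times on the group means in WNT5A pools and 14.4 times in controls, and the 2 ranges did not overlap. Neighbours further down were less distinct. ESRRB exceeded PRDM14 in 11 of 17 libraries, and TFCP2L1 exceeded NANOG in 9 of 17, so neither pair differed beyond its spread. PRDM14 exceeded SALL4 in 14 of 17, SALL4 exceeded LIN28A in 16, LIN28A exceeded TFCP2L1 in 17 and NANOG exceeded LIN28B in 12. These orders compare levels per annotated exon length, which ran from 618 bases in 4 exons for LIN28A to 5062 bases in 9 exons for ESRRB. The length was a multiple of 3 for 5 of the 10 (POU5F1, LIN28A, LIN28B, PRDM14 and NODAL) and for 42.2% of all genes in the table. How far these models hold untranslated sequence was not tested.

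**Figure D1:**
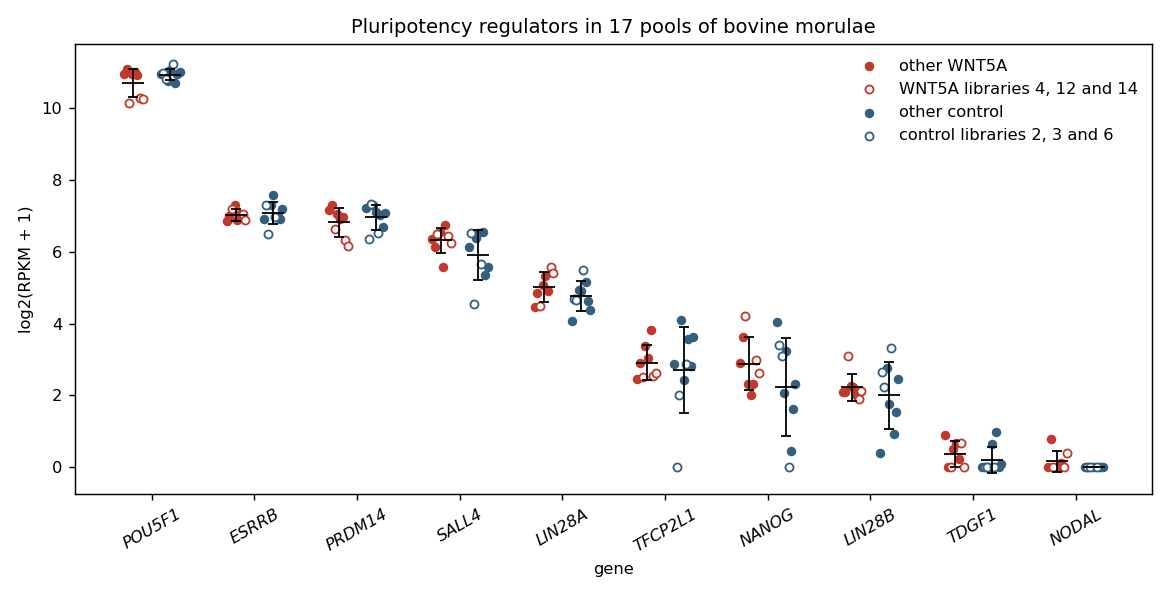
Level of each of the 10 genes, as log2(RPKM + 1), in every library, with WNT5A pools in red at the left and control pools in blue at the right of each gene. Open circles are WNT5A libraries 4, 12 and 14 and control libraries 2, 3 and 6, and bars give the mean and SD on the log2 scale. POU5F1 lies alone at the top, NODAL is at 0 in all 9 controls, and single controls fall to 0 for TFCP2L1 and NANOG.

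The WNT5A comparison asked whether the ligand shifted these regulators, and it moved none of them past the threshold. Of the 10 genes, 8 were expressed highly enough to be tested, and 0 of these 8 passed an adjusted p of 0.05 in limma on log2(RPKM + 1), adjusted over all 12415 genes tested. Among all tested genes 0.00805% passed, which is 1 gene. At an unadjusted p under 0.05 the regulators again gave 0 of 8, against 7.35% of all tested genes. A higher fitted value was found for 5 of the 8, or 62.5%, against 62.3% of all tested genes, and the 8 had a median log2 change of 0.21 beside 0.11 for all genes. The smallest adjusted p that any of the 8 reached, over every library left out and every other setting, was 0.501. The authors' deposited table also called none of the 10 at an FDR of 0.05, beside 1.01% of its genes, and NODAL alone had a p under 0.05 there, beside 8.19%. No regulator separated the groups without overlap, as 0.0161% of tested genes did.

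POU5F1 ran from 1125 through a median of 1951 to 2146 RPKM in WNT5A pools, and from 1636 through 1962 to 2360 RPKM in control pools. The medians almost coincide, and the 3 lowest of all 17 pools were WNT5A libraries 4, 12 and 14. Its log2 change was -0.23 ± 0.15 (SE, n = 8 and 9; 95% interval -0.54 to 0.08; limma adjusted p = 0.721). Those 3 libraries held 1125 to 1234 RPKM, against 1935 to 2146 RPKM in the other 5 WNT5A libraries, 0.593 times on the mean. Without them the log2 change was 0.05 (95% interval -0.18 to 0.28). The controls varied little, with a coefficient of variation of 11.5%, where the median tested gene had 54.6%. In the WNT5A pools it was 25.2%, against 37.0% for the median tested gene. Genes as abundant as POU5F1 were not set beside it.

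PRDM14 followed the same libraries. It ran from 70.0 through 121 to 155 RPKM in WNT5A pools, and from 80.2 through 133 to 160 RPKM in control pools, and the groups overlapped. The log2 change was -0.14 ± 0.18 (SE; 95% interval -0.53 to 0.24; limma adjusted p = 0.832). WNT5A libraries 4, 12 and 14 held 70.0 to 98.7 RPKM, against 118 to 155 RPKM in the other 5, and without these 3 the log2 change was 0.12. POU5F1 and PRDM14 were thus the 2 of 8 tested regulators whose levels in WNT5A libraries 4, 12 and 14 lay wholly below those of the other 5. The same held for 13.9% of all tested genes, and for none of the 8 in the higher direction, where 11.1% of all genes lay. None of the 8 separated control libraries 2, 3 and 6 from the other 6, where 9.38% of tested genes lay wholly lower and 2.45% wholly higher. In the same 3 WNT5A libraries reads were fewer, and summed primitive endoderm markers averaged 248 RPKM against 373 RPKM in the other 5. Summed trophectoderm markers averaged 2071 against 2542 RPKM. Over all WNT5A pools they ran from 1618 through a median of 2057 to 4408 RPKM, with the highest pool among the other 5. The trophectoderm difference may thus rest on 1 pool. The part of reads and markers in the levels of POU5F1 and PRDM14 was not tested.

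ESRRB had the fitted change nearest to 0, with levels of 113 to 155 RPKM with a median of 128 in WNT5A pools, and 89.4 to 188 RPKM with a median of 125 in control pools. The WNT5A range sat inside the control range. Its log2 change was -0.04 ± 0.14 (SE; 95% interval -0.34 to 0.25; limma adjusted p = 0.943). The coefficient of variation was 11.3% in WNT5A pools and 21.3% in controls, and the levels in WNT5A libraries 4, 12 and 14 were 1.02 times those in the other 5. TFCP2L1, which acts beside ESRRB in mouse naive cells, was far lower and more scattered. It ran from 4.47 through 5.79 to 13.1 RPKM in WNT5A pools, and from 0 through 6.31 to 16.05 RPKM in controls, with control library 2 listed at 0. The log2 change was 0.20 ± 0.43 (SE; limma adjusted p = 0.906). It was -0.33 when control libraries 2, 3 and 6 were left out, which averaged 3.15 RPKM against 9.17 RPKM in the other 6. Without control library 2 alone it was -0.13, so that 1 library decided the sign. Control libraries 2, 3 and 6 also differed from the other 6 in summed markers, with 1459 against 2096 RPKM for trophectoderm, 221 against 376 for primitive endoderm, 58.8 against 32.0 for oocyte, 18.5 against 27.9 for cumulus and granulosa, and 27.2 against 14.5 for blood and immune genes. The part of these shifts in the levels of TFCP2L1 and LIN28B was not tested.

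SALL4 ran from 46.2 through 83.3 to 106 RPKM in WNT5A pools, and from 22.5 through 69.0 to 92.8 RPKM in control pools. In 6 of 8 WNT5A pools it was above the control median, but only 1 pool lay above every control. The log2 change was 0.40 ± 0.25 (SE; 95% interval -0.12 to 0.92; limma adjusted p = 0.718). It was 0.23 without control library 3 alone, the lowest at 22.5 RPKM, likewise 0.23 without control libraries 2, 3 and 6, and 0.19 without both sets of 3, where the change in all tested genes had a median of 0.03.

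NANOG was low and erratic. It ran from 3.04 through 5.84 to 17.6 RPKM in WNT5A pools, and from 0 through 4.002 to 15.4 RPKM in control pools. Every WNT5A pool held NANOG reads, as did 8 of 9 controls. In control library 6 NANOG had no read, where 3 reads would be 0.0141 RPKM, while POU5F1 stood at 2360 RPKM, the highest of the 17 libraries. Control library 9 had 81 reads of NANOG, and control library 1, at the other end, 3888. The log2 change was 0.63 ± 0.50 (SE; 95% interval -0.40 to 1.66; limma adjusted p = 0.753), an interval that spans 0. It was 0.35 without control library 6 alone, 0.39 without WNT5A libraries 4, 12 and 14, 0.35 without both sets of 3 and 1.14 with a pseudocount of 0.1. With coefficients of variation of 66.9% in WNT5A pools and 89.7% in controls, NANOG varied more between pools than the median tested gene in either group. So did TFCP2L1 (43.5% in WNT5A pools and 67.8% in controls) and LIN28B (39.7% and 72.6%), which lay at like levels.

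**Figure D2:**
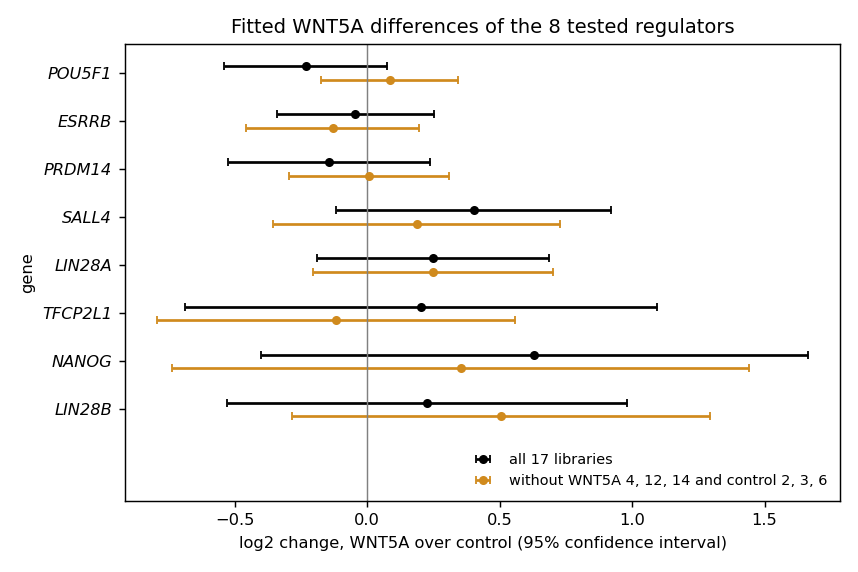
Fitted log2 change, WNT5A over control, with its 95% confidence interval for the 8 tested genes. Black is the fit over all 17 libraries and orange the fit without both sets of 3 libraries. Every interval crosses 0, POU5F1 is at -0.23 in black and 0.08 in orange and NANOG has the widest interval.

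LIN28A was the major LIN28 message in the morula. It exceeded LIN28B in 17 of 17 libraries, by 8.45 times on the group means in WNT5A pools and 7.28 times in control pools, per annotated exon length. LIN28A ran from 21.1 through 30.9 to 46.8 RPKM in WNT5A pools, and from 15.9 through 24.5 to 43.6 RPKM in control pools. In 6 of 8 WNT5A pools it was above the control median, and the log2 change was 0.25 ± 0.21 (SE; 95% interval -0.19 to 0.69; limma adjusted p = 0.760), and 0.25 again without both sets of 3 libraries. LIN28B ran from 2.70 through 3.32 to 7.499 RPKM in WNT5A pools, and from 0.310 through 3.69 to 8.93 RPKM in control pools. The controls spread 28.8 times from lowest to highest and the WNT5A pools 2.78 times, a difference in spread that was not tested. The log2 change was 0.22 ± 0.36 (SE; 95% interval -0.53 to 0.98; limma adjusted p = 0.873). It was 0.59 when control libraries 2, 3 and 6 were left out, which averaged 5.95 RPKM against 2.62 RPKM in the other 6. It was 0.05 after quantile normalization and 0.02 without control library 1, which is also the low end of the control spread at 0.310 RPKM, with the next control at 0.906.

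**Figure D3:**
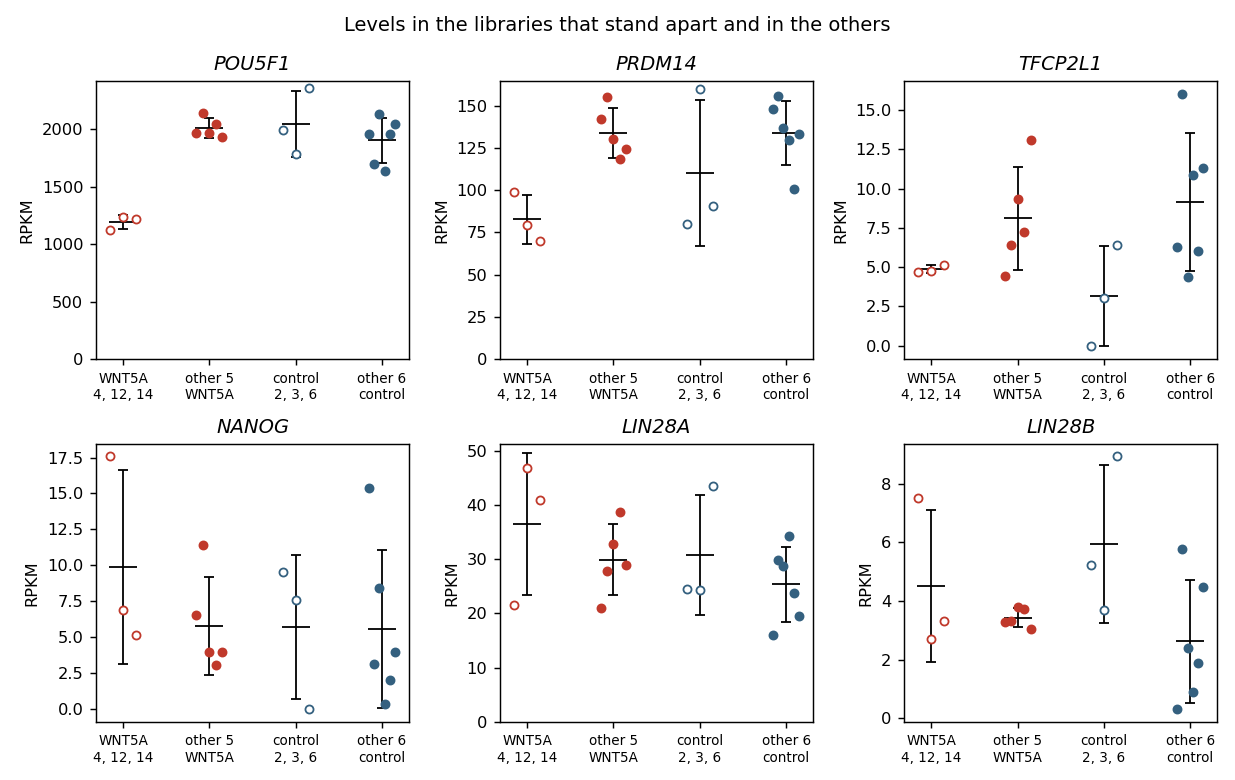
RPKM of 6 regulators in WNT5A libraries 4, 12 and 14, the other 5 WNT5A libraries, control libraries 2, 3 and 6 and the other 6 control libraries, with mean and SD. For POU5F1 and PRDM14 the 3 WNT5A libraries lie wholly below the other 5, and for TFCP2L1 control library 2 is at 0.

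The NODAL ligand and its co-receptor were low and patchy, with clear reads in some pools and none in others, and were too low for the main test. Reads of NODAL were present in 3 of 8 WNT5A pools and 0 of 9 controls, or 0 of the 6 left without control libraries 2, 3 and 6. WNT5A library 2 held 0.741 RPKM from 143 reads, library 14 held 0.314 RPKM from 17 reads and library 11 held 0.0942 RPKM from 14 reads. In controls, 3 reads of NODAL would be 0.0176 to 0.0227 RPKM, below the level of WNT5A library 2. That floor covers counting error only. NANOG in control library 6 and TFCP2L1 in control library 2 had no read, at 3-read floors of 0.0141 and 0.00921 RPKM. Whether NODAL message was absent from the controls was thus not tested. With no filter on low genes NODAL had an unadjusted p of 0.110 and an adjusted p of 0.747 in limma, where 0 of all 17167 genes passed and 7.11% had an unadjusted p under 0.05. The authors' deposited table gave NODAL a p of 0.00503 and an FDR of 0.188. TDGF1 had reads in 6 of 8 WNT5A pools and 4 of 9 controls, at up to 0.867 RPKM in WNT5A pools and 0.969 RPKM in control pools. The 4 controls with reads were all among the 6 other than control libraries 2, 3 and 6, which had none. The WNT5A pools without reads were libraries 4 and 14, both of low depth. With no filter the log2 change of TDGF1 was 0.18 ± 0.17 (SE; limma adjusted p = 0.790). WNT5A library 2, the highest for NODAL, had 2 reads of TDGF1, library 11 had 40 and library 14 had none.

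Of 27 other symbols listed for the NODAL pathway, 20 had a row and 17 were tested, and none passed. ACVR1C, CER1, CFC1, GDF3, GREM1 and LEFTY1 had no row, so their levels could not be seen. TMEPAI, an older symbol of PMEPA1, had none either. Fitted values were higher for 12 and lower for 5, or 70.6% higher against 62.3% of all tested genes. The median log2 change was 0.32 beside 0.11 for all tested genes, and 0.07 beside 0.03 without both sets of 3 libraries. The type II receptor gene ACVR2B averaged 33.0 ± 7.70 RPKM in WNT5A pools and 30.7 ± 11.9 in controls (SD, n = 8 and 9). FOXH1, the nuclear partner of NODAL-activated SMADs, averaged 21.5 ± 7.54 and 26.4 ± 15.5 RPKM, and the signal transducer SMAD2 21.0 ± 3.91 and 24.6 ± 11.97 RPKM, in WNT5A and control pools. The type I receptor gene ACVR1B was scarce, at 0.710 ± 0.547 RPKM in WNT5A pools and 0.397 ± 0.572 in controls (SD, n = 8 and 9). The inhibitor and NODAL target LEFTY2 averaged 2.001 ± 1.34 and 1.95 ± 1.67 RPKM. The smallest p in the list belonged to DACT2, whose product lowers NODAL receptor levels in fish, at 1.27 ± 0.40 on the log2 scale (SE; limma adjusted p = 0.673). DACT2 averaged 4.79 ± 2.09 RPKM in WNT5A pools and 1.76 ± 1.84 in controls (SD, n = 8 and 9), and had 1.03 without both sets of 3 libraries. The inhibitory SMAD7 (1.13) and the SMAD repressor gene SKIL (0.81) came next, with log2 changes of 0.29 and 0.33 without both sets of 3.

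The LIN28 and let-7 list held 21 genes, with TUT4 and TUT7 each entered under an older symbol too, and all had a row and 19 were tested. None passed, and 13 were higher and 6 lower, or 68.4% higher against 62.3% of all tested genes. The median log2 change was 0.29, beside 0.11 for all tested genes. Without both sets of 3 libraries it became -0.06, beside 0.03 for all tested genes. There 8 were higher and 11 lower, or 42.1% higher against 55.7%. KHSRP, which promotes let-7 processing, was at 1.44 ± 0.51 on the log2 scale (SE; limma adjusted p = 0.673) and averaged 67.1 RPKM in WNT5A libraries 4, 12 and 14, against 7.59 RPKM in the other 5 and 6.28 RPKM in controls. HMGA1, a chromatin protein gene, had 0.87 and averaged 361 RPKM in those 3 libraries against 85.3 in the other 5. Without both sets of 3 libraries KHSRP had 0.16 and HMGA1 0.07. XPO5, the exporter of precursor microRNAs, had 1.197 ± 0.48 (SE; limma adjusted p = 0.673), and 0.53 without both sets. IGF2BP1, an oncofetal RNA-binding protein gene, was abundant at 199 ± 36.0 RPKM in WNT5A pools and 224 ± 60.0 in controls (SD, n = 8 and 9). TUT4 and TUT7, which encode the enzymes that add uridines to precursor let-7 held by LIN28, were present at 2.59 and 7.17 RPKM in WNT5A pools and 1.99 and 8.34 RPKM in controls.

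In the wider pluripotency network, 37 of 42 listed genes had a row and 33 were tested. None passed, and 25 were higher and 8 lower, or 75.8% higher against 62.3% of all tested genes. The median log2 change was 0.18, beside 0.11 for all tested genes. At an unadjusted p under 0.05 there were 7 higher and 0 lower, where all tested genes gave 5.73% higher and 1.62% lower. Without both sets of 3 libraries there were 4 higher of 33, where all tested genes gave 238 higher of 12415. FOXD3, a forkhead factor of epiblast and neural crest cells, stood at a log2 change of 1.38 ± 0.46 (SE; adjusted p = 0.673 in limma). It averaged 5.10 ± 2.71 RPKM in WNT5A pools, with reads in 8 of 8, and 1.95 ± 2.67 RPKM in controls, with reads in 6 of 9 (SD). FOXD3 had no read in control libraries 2, 3 and 6, and its log2 change was 0.99 without both sets of 3 libraries. KLF2, a Kruppel-like factor of the mouse naive state, had 1.12 ± 0.30, and NACC1, a BTB-domain partner of NANOG and POU5F1 in mouse cells, 1.14 ± 0.38 (SE; limma adjusted p = 0.673 for each). Without both sets of 3 libraries KLF2 had 0.68 and NACC1 0.13, as NACC1 averaged 34.1 RPKM in WNT5A libraries 4, 12 and 14 and 10.1 RPKM in the other 5.

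**Figure D4:**
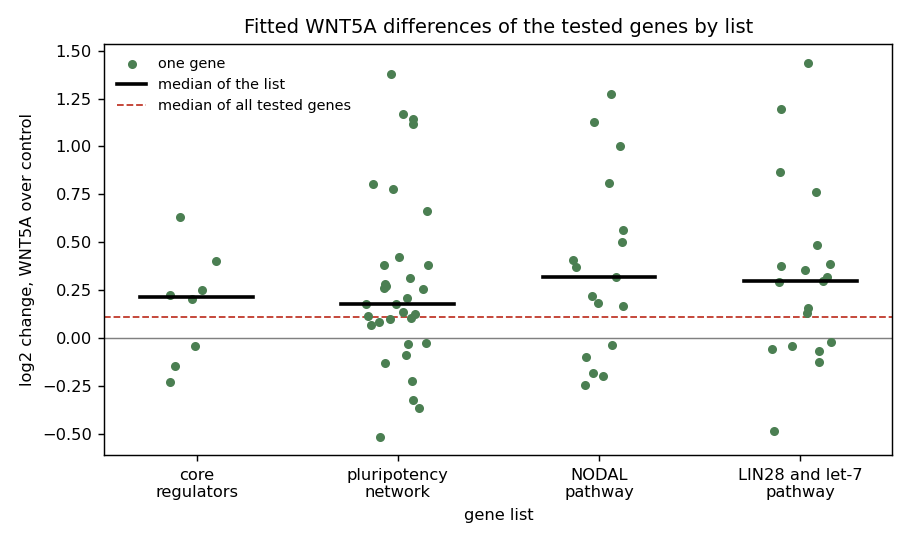
Fitted log2 change, WNT5A over control, of each tested gene in the 4 lists, with 1 point per gene, a black bar at each list's median and a dashed red line at the median of all tested genes, 0.11. The list medians are 0.21, 0.18, 0.32 and 0.29 from left to right, and no gene shown passed the threshold.

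Few pairs of the regulators ran closely together over the pools, though the share among pairs of all tested genes was not counted. Among the 28 pairs of the 8 tested genes, the Pearson correlation of log2(RPKM + 1) was above 0.5 in 1 pair over all 17 libraries (ESRRB and SALL4, r = 0.64) and in 2 pairs over the 11 libraries left without both sets of 3 (POU5F1 with NANOG, r = 0.67, and NANOG with PRDM14, r = 0.55). LIN28A and NANOG ran opposite, with r = -0.53 over 17 libraries and -0.54 over 11, and POU5F1 and TFCP2L1 did so over the 11 (r = -0.61) but not over all 17 (r = 0.03). These values are descriptions, since pools share depth and library features. The genes named below were picked for the highest r among all tested genes, which gives high values even where genes are unrelated. The 11 libraries are part of the same 17, so the second value is no separate check. The genes most like POU5F1 over 17 libraries were CYC1, which encodes cytochrome c1 (r = 0.97, and 0.86 over the 11), PDXK (0.95 and 0.65) and ADRM1 (0.95 and 0.74). Among the genes most like NANOG were RPS6KB1 (0.83 and 0.88) and CCNE2 (0.82 and 0.72). SALL4 was most like SHROOM1 (0.90 and 0.88), DGKD (0.89 and 0.89) and SLC30A1 (0.88 and 0.81), and ESRRB most like FGFR4 (0.82 and 0.82), QARS1 (0.80 and 0.64) and MGC152340 (0.78 and 0.66). PRDM14 was most like CCT3 (0.93 and 0.79), PRMT5 (0.92 and 0.58) and CXXC1 (0.91 and 0.62), and TFCP2L1 most like TNKS1BP1 (0.92 and 0.75), FAM83H (0.92 and 0.68) and LIMK2 (0.90 and 0.63). LIN28A was most like ALX1 (0.78 and 0.70), ZBTB18 (0.74 and 0.67) and bta-mir-2440 (0.73 and 0.63), and LIN28B most like SRSF2 (0.77 and 0.83), NRM (0.73 and 0.78) and CHD2 (0.72 and 0.64).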

How the data were processed

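Per the labels' protocols, RNA came from an RNeasy micro kit and libraries from a TruSeq stranded kit for mRNA. The tools FastQC, HISAT2, featureCounts, edgeR and the assembly ARS-UCD1.2 are named in the submitters' processing notes; their versions and the strand setting are not stated there. The table of the authors holds deposited RPKM for 17167 genes. Per the file headers, it also gives, for each gene, the log2 fold change and log2 CPM of the authors' test. Its score (a likelihood ratio), p-value and FDR stand beside these, per the file headers.

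The test was planned for RPKM as deposited, so no count test was run, although reads were recovered from these values. limma 3.58.1 in R 4.3.3 (trend and robust, two-sided, Benjamini-Hochberg) was fitted to log2(RPKM + 1) of genes reaching 0.5 RPKM in 8 or more libraries. Fold changes on this scale understate those of low genes. Reads were recovered from whole multiples of the step in each library, met by 100% of values within 0.001, and they cover counting error only. Alternatives were a pseudocount of 0.1, no filter, quantile normalization, libraries left out and a replicate block. Groups and numbers came from the labels. The genes, lists and both sets of 3 libraries were chosen with earlier results of these data known. Named genes were the 10 regulators, the 3 smallest p per list, the 3 genes most correlated with each tested regulator, and marker genes. Values of 1 gene that met this rule are not reported here. Other genes given by level, among them ACVR2B, FOXH1, SMAD2, ACVR1B, LEFTY2, IGF2BP1, TUT4 and TUT7, were picked after their values were seen. The test was checked on simulated data, made by permuting residuals within each gene, which removes differences shared by whole libraries. There 36 of 100 genes given a log2 change of 1 passed, and 87 of 100 given 2, with 7 false calls. Most changes of 1 or less would thus be missed, and the fitted changes of the 8 tested regulators were -0.23 to 0.63. Plots used matplotlib 3.10.9 in Python 3.11.15. Sequences were not used here.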

Additional observations from a re-analysis of the deposited data

Results flagged for a closer look

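A pair of values stood far from the rest of their group on the log2(RPKM + 1) scale, out of 19 groups of 8 or 9 pools screened, where chance marks about 1 in 20. LIN28B in WNT5A library 4 was the highest of its group at 7.499 RPKM, with a gap to the next pool of 0.689 of the group's range. TFCP2L1 in control library 2 was the lowest of its group, with a value of 0 RPKM and a gap of 0.495 of the range. WNT5A library 4 is one of those with few reads, and control library 2 one of those with few genes detected.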

How the results depend on the processing

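No regulator passed under any of the alternatives run. The direction of POU5F1 changed to 0.0513 without WNT5A libraries 4, 12 and 14 and to 0.0845 without both sets of 3 libraries (with the filter or without it), that of PRDM14 to 0.12, 0.00733 and, with the replicate block, 0.11, that of TFCP2L1 to -0.33 without control libraries 2, 3 and 6 and to -0.12 without both sets, and that of ESRRB to 0.0771 after quantile normalization; the cause was not tested. Leaving out 1 library at a time gave log2 changes of -0.29 to -0.15 for POU5F1, -0.22 to -0.05 for PRDM14, 0.35 to 0.85 for NANOG, 0.23 to 0.51 for SALL4, 0.16 to 0.34 for LIN28A, 0.02 to 0.39 for LIN28B, -0.13 to 0.38 for TFCP2L1 (negative without control library 2) and -0.11 to 0.0183 for ESRRB (positive without control library 5). The single gene past the threshold among all tested became 0 with no filter, after quantile normalization, without either or both sets of 3 and with the replicate block, and 0 to 2 when 1 library was left out. The median of the LIN28 and let-7 list became -0.0569 without both sets of 3. The median of all tested genes was 0.11, and -0.01 after quantile normalization, when 48.4% of genes and 6 of the 8 regulators were higher. The numbers 1, 2, 4 and 10 occur in both groups, and deviations of same-numbered libraries correlated at 0.0217 to 0.216, under 0.1 in 2 of 4 pairs. Correlations between differently numbered libraries were not computed, so these values cannot decide whether the numbers mark pairs. Pairing by number was not assumed. The replicate block over those 4 pairs gave a count of 0 in place of 1 and a log2 change of 0.05 for SALL4. It also gave 0 in place of 7 network genes higher at an unadjusted p under 0.05. The no-filter fit without both sets of 3 was added after seeing the data.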

Other observations

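Of the 37 network list genes with a row, the 8 with the highest control means are given here, picked after their values were seen. By that pick they were far above NANOG. From place 24 of the 37 on, control means lay below the 5.60 RPKM of NANOG, from MYCL at 5.59 RPKM down to ZIC2 at 0.0835 RPKM. The tetraspanin gene CD9 averaged 947 ± 165 RPKM in WNT5A pools and 916 ± 213 in controls, and ZFP42 (REX1), a mouse naive marker, 328 ± 37.6 and 336 ± 50.1 (SD, n = 8 and 9). TBX3, a T-box factor, averaged 191 ± 60.7 RPKM in WNT5A pools and 205 ± 64.0 in controls. The adhesion molecule gene EPCAM averaged 221 ± 33.4 and 186 ± 41.5 RPKM, and SOX15 189 ± 47.1 and 170 ± 33.8 RPKM, in WNT5A and control pools. All 5 had reads in 8 of 8 WNT5A pools and 9 of 9 controls. The next 3 in that order were DPPA2 at 126 ± 18.7 RPKM in WNT5A pools and 140 ± 29.98 in controls, KLF5 at 143 ± 40.4 and 133 ± 45.1, and DPPA3 (STELLA), a maternal and germ cell factor, at 140 ± 38.3 and 131 ± 40.4.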
